A study of Mus musculus with 12 samples.

Results

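The respiratory chain genes of the nuclear genome were described in 4 sorted sub-populations of the murine leukemia line ML23. Their members are the protein-coding genes of the deposited table whose symbols name a subunit of complexes I to V: the Nduf genes of complex I, the Sdh genes of complex II, the Uqcr genes and Cyc1 of complex III, the Cox4i to Cox8 genes of complex IV and the Atp5 genes of complex V. This gave 81 of 20202 genes, with 36 in complex I, 4 in complex II, 9 in complex III, 15 in complex IV and 17 in complex V. They lie on 19 chromosomes, and none is encoded by the mitochondrial genome. Symbols do not follow function everywhere: Ndufa4 encodes a complex IV subunit, Cox7a2l a factor that joins complexes III and IV into supercomplexes, and Atp5s a protein that is not a subunit of the synthase.

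Complexes I and II pass electrons from NADH and succinate to ubiquinone, complex III passes them on to cytochrome c, and complex IV hands them to oxygen. Complexes I, III and IV pump protons across the inner mitochondrial membrane, and complex V, the ATP synthase, lets them flow back to make ATP. Normal hematopoietic stem cells rely largely on glycolysis, leukemic stem cells have been described as dependent on oxidative phosphorylation, and mature neutrophils hold few active mitochondria.

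ML23 was made from cells of rtTA transgenic mice with lentiviruses that overexpress Meis1, HoxA9 and HoxB5, carries a ZsGreen reporter and was passaged in C57BL/6 mice, so that every library below derives from this single line and shares these alleles. ZsGreen+ cells were sorted into P11 (CD9-cKit+Mac1-CD48+), which the study calls leukemic stem cells, P12, which has the same phenotype without cKit (CD9-cKit-Mac1-CD48+), P10, which differs from P11 by Mac1 (CD9-cKit+Mac1+CD48+), and P9, which carries CD9 and lacks CD48 (CD9+cKit+Mac1+CD48-), with 3 libraries of 100 cells each. The paper describes cells from diseased mice, but the labels do not say which library came from which mouse, so the p-values measure the spread between these libraries, part of which may be technical. Values are CPM, alignments scaled to the library total, and differences are log2 differences of CPM + 0.5.

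The spacing of the low CPM values puts the libraries at 13437487 to 21296674 alignments (median 17836154). By this estimate 1 CPM stands for about 13.4 alignments or more. Most of these totals lie above the range of reads per sample that the paper states, a difference that was not resolved. The 100 most abundant genes took 16.8 to 18.4% of the table's CPM in P11, 18.2 to 19.1% in P12, 21.1 to 21.4% in P10 and 33.6 to 35.6% in P9. A list of 10 neutrophil markers, among them Ltf, Camp and S100a8, summed to 270 to 808 CPM in P11, 411 to 474 CPM in P12, 1754, 2392 and 12336 CPM in P10 and 112303 to 125337 CPM in P9. P10 replicate 3 thus stood apart from the other P10 libraries, and P11 replicate 3, at 808 CPM, lay above the others of P11, at 270 and 318 CPM. Of 8 monocyte and macrophage markers 7 were tested, and the list summed to 959 to 1067 CPM in P11, 1226 to 1969 CPM in P12, 2297 to 2304 CPM in P10 and 99.1 to 115 CPM in P9. The labels call the source hematopoietic stem cells, but of 10 markers of these cells only 4 were tested, and Slamf1, Procr, Mecom and Fgd5 were not among them. The list summed to 430 to 488 CPM in P11, 312 to 411 CPM in P12, 103 to 118 CPM in P10 and 54.3 to 78.3 CPM in P9. This order is that of Cd34, with means of 402 CPM in P11, 355 CPM in P12, 93.8 CPM in P10 and 6.56 CPM in P9. The other tested markers ran otherwise. Kit had means of 63.2 CPM in P11, 5.19 CPM in P12, 12.7 CPM in P10 and 54.5 CPM in P9, Hlf was highest in P9 and Ly6a in P10. CPM are shares of a library, so a library filled by a few genes gives lower CPM to all others, and the median ratio of each library to a common mean, taken from genes with at least 10 CPM throughout, gave factors of 1.08 to 1.16 in P11, 1.03 to 1.13 in P12, 1.01 to 1.04 in P10 and 0.765 to 0.828 in P9. The main results for P11 are therefore given on the deposited scale and again after rescaling by these factors. Sums of CPM, the order of means and libraries, and most single genes are given on the deposited scale alone.

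Promoter sequences from RefSeq (GRCm38.p6) were matched to 66 of the 81 members, 2 of them by a synonym, each with 250 bases before and 50 bases after a start site. Apart from Atp5a1, whose promoter is not shown, the 4 members with the highest and 2 with the lowest P11 over P9 difference at a mean of 10 CPM or more are shown first, and Sdhd and Uqcr11 follow, chosen after the motif search because each holds a motif that is uncommon among promoters. The start site is position 1, and letters are in capitals where a searched motif lies on either strand.
Ndufa12, chr10:94198785-94199084, plus strand: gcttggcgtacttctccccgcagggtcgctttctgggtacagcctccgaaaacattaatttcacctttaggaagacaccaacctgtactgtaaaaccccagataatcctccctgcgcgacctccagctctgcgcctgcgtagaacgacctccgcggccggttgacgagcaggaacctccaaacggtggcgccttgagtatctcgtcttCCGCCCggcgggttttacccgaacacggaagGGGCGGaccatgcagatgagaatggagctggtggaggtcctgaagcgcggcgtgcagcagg
Atp5g1, chr11:96075582-96075881, minus strand: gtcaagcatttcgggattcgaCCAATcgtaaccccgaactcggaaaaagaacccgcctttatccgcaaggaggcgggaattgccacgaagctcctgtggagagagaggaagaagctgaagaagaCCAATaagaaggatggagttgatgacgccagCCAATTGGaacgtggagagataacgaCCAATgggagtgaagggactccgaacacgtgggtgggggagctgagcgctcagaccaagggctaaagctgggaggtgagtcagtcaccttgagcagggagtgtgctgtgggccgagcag
Cox6b2, chr7:4753045-4753344, minus strand: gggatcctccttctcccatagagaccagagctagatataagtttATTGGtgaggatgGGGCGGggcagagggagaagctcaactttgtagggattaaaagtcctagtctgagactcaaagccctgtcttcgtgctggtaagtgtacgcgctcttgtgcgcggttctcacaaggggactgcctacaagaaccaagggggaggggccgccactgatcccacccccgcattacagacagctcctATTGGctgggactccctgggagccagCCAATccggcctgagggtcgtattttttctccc
Ndufa9, chr6:126849095-126849394, minus strand: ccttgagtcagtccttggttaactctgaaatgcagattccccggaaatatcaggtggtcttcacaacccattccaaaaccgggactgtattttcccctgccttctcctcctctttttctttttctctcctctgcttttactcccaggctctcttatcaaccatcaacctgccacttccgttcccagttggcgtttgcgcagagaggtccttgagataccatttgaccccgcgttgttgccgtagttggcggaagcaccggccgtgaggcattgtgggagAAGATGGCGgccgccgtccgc
Ndufv3, chr17:31519865-31520164, plus strand: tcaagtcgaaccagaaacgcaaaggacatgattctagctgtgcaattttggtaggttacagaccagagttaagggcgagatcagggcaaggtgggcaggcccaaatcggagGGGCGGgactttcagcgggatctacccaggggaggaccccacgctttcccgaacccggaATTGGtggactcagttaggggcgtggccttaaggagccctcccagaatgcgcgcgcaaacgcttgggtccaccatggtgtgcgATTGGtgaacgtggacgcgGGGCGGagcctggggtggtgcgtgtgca
Ndufb7, chr8:83566508-83566807, plus strand: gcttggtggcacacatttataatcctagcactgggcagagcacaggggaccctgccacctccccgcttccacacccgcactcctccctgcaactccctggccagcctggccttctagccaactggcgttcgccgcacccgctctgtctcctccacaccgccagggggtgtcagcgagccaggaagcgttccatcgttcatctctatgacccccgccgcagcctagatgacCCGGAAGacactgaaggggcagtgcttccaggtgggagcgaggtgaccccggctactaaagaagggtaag
Sdhd, chr9:50603800-50604099, minus strand: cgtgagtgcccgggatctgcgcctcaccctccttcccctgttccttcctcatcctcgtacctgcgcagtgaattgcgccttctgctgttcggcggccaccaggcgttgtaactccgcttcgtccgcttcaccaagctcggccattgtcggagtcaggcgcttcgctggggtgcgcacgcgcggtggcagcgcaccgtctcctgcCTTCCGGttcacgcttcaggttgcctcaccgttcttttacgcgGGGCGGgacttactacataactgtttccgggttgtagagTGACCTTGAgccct
Uqcr11, chr10:80406772-80407071, minus strand: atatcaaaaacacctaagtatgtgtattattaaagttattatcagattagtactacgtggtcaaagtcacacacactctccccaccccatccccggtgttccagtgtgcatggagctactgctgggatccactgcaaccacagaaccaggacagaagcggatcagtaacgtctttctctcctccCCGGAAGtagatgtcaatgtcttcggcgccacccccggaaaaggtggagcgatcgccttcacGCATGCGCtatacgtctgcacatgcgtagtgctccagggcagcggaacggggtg

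The motifs searched were GCGCATGC for NRF1, CCGGAAG for the ETS factor GABPA, AAGATGGCG for YY1, TCAAGGTCA for the estrogen-related receptors, the CCAAT box CCAAT and the GC box GGGCGG, each on both strands. NRF1, GABPA and the estrogen-related receptors are known regulators of respiratory chain genes. The NRF1 letters were in 10 of 66 member promoters (15.2%), against 5.08% of 10832 protein-coding promoters of the same length. The YY1 letters were in 6 (9.09%, against 3.02%), the ETS letters in 15 (22.7%, against 17.7%) and the CCAAT box in 29 (43.9%, against 39.3%). The GC box was in 27 (40.9%), against 61.4% of all promoters. The receptor letters were in 2 members, Sdhd and Atp5g3 (3.03%, against 0.268%).

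In the promoters printed above, Uqcr11 holds the NRF1 letters on the minus strand at position -4 from the start site, and Sdhd holds the receptor letters on the minus strand at position 37. Atp5g1 holds 5 CCAAT boxes, of which a pair on opposite strands shares 2 bases, and Ndufa9 holds the YY1 letters at position 30. Ndufv3, whose mRNA was higher in P9, holds 2 CCAAT and 2 GC boxes, so these boxes occur at both ends of the ranking. The start site of Ndufa12 lies 315 bases from the gene start in the table. No motif is read as a site of binding. Members with the NRF1 letters had a median P11 over P9 log2 difference of 0.97 and those without 1.28, and for ETS the medians were 1.02 and 1.28.

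The summed CPM of the 81 members were highest in P11 and lowest in P9. They came to 4717, 4522 and 5046 CPM in P11, 4284, 4305 and 3684 CPM in P12, 2894, 3243 and 3491 CPM in P10 and 1802, 1879 and 2074 CPM in P9. On the deposited scale each P11 library lay above all others and each P9 library below all others. The libraries of P12 and P10 did not overlap either. The sums were not rescaled. The rescaling factors were lowest in P9 and differed between the other groups. Division by them would put P12 replicate 1 (factor 1.034) above P11 replicate 1 (factor 1.147). It would also put P12 replicate 3 (factor 1.13) under P10 replicate 3 (factor 1.04), so on that scale these neighboring groups overlap. The P9 libraries would stay below all others, and the ratios below would be smaller. The mean in P11 (4762 ± 265, SD, n = 3) was 2.48 times that in P9 (1918 ± 140), 1.48 times that in P10 (3209 ± 300) and 1.16 times that in P12 (4091 ± 353). As a share of the table's CPM the members took 0.582 to 0.603% in P11, 0.459 to 0.571% in P12, 0.374 to 0.429% in P10 and 0.227 to 0.258% in P9. In bulk libraries fewer cells that express a gene and less of its RNA per cell cannot be told apart.

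**Figure D1:**
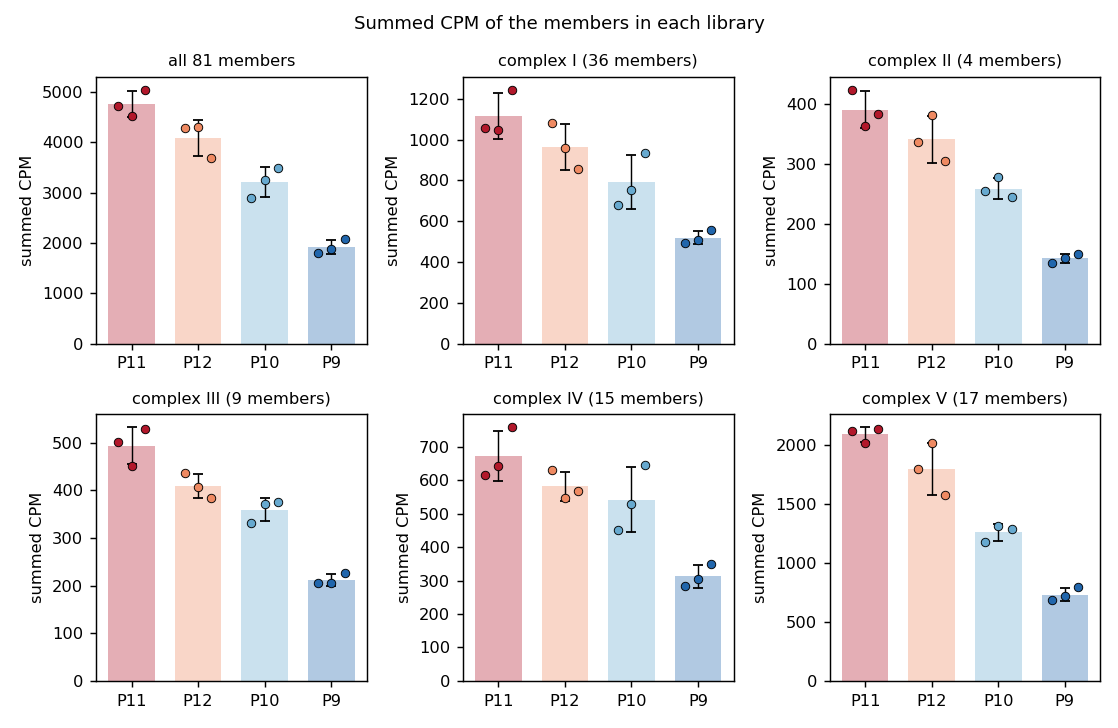
Summed CPM of each complex in the 12 libraries, in the order P11, P12, P10 and P9 on the horizontal axis. Points are libraries, and bars give the mean with the SD of 3. Complex V has the largest sums, 2017 to 2131 CPM in P11 and 687 to 793 CPM in P9.

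The complexes differed in the size of this step on the deposited scale. Complex V summed to 2115, 2017 and 2131 CPM in P11, 1799, 2012 and 1571 CPM in P12, 1176, 1311 and 1289 CPM in P10 and 687, 717 and 793 CPM in P9, so that P11 was 2.85 times P9. The ratio of P11 over P9 was 2.74 for complex II, 2.33 for complex III and 2.15 for both complexes I and IV. These sums weigh the abundant members most: Atp5a1 and Atp5b alone averaged 597 and 664 CPM in P11. By the median member, which weighs each gene alike, the P11 over P9 log2 difference was 1.39 for complex II, 1.28 for complex V, 1.18 for complex I, 1.14 for complex III and 1.08 for complex IV, a narrower spread. After rescaling these medians were 0.89 for complex II, 0.79 for complex V, 0.68 for complex I, 0.64 for complex III and 0.58 for complex IV, against 0.45 for all genes tested. No test was made of one complex against another. Per kilobase of the longest annotated transcript, which need not be the one expressed, the median level over the members was 40.9 CPM per kb in P11, 34.2 CPM per kb in P12, 30.2 CPM per kb in P10 and 20.2 CPM per kb in P9.

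Of the 81 members 78 passed the filter of 1 CPM in at least 3 libraries. The other members were Cox4i2, Cox6a2 and Cox7a1, of which the first is known as a lung isoform and the others as isoforms of heart and skeletal muscle. All 3 stayed under 1 CPM in every library, and Cox4i2 and Cox6a2 are listed at 0 in all P9 libraries. Cox7b2, Cox8b, Cox8c and Ndufa4l2 were not analysed here.

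**Figure D2:**
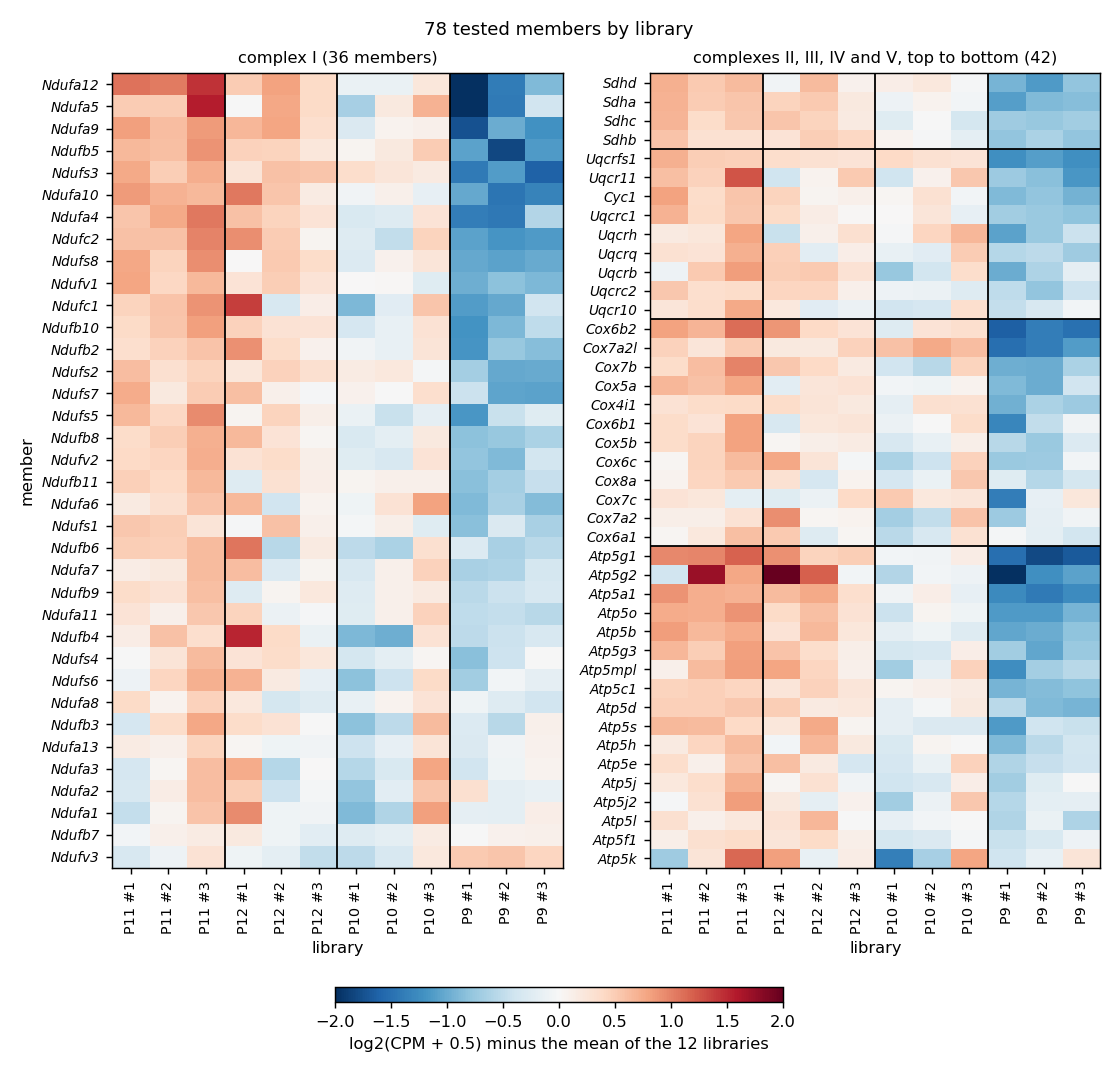
Level of each tested member in each library, as log2(CPM + 0.5) minus the mean of the 12 libraries, with colors limited to -2 and 2. Members are ordered within each complex by their P11 over P9 difference. P11 is mostly above and P9 mostly below the mean, whereas the 3 P9 libraries of Ndufv3 lie above the 9 others.

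P11 was first set against the mean of P12, P10 and P9, the contrast the study used for its stem cell signature. With limma and Benjamini-Hochberg adjustment over 13450 genes, 63 of 78 members were higher in P11 at an adjusted p under 0.1 and none was lower. Of all genes tested 50.1% were higher, and 1981 of 13450 were lower. A difference above 2-fold was reached by 9 members, where 19.9% of all genes tested reached it, so the members' share was under the background. These 9 were Ndufa12, Ndufa5, Ndufa4 and Ndufa9 of the Nduf genes, Uqcr11, Cox6b2, and Atp5g1, Atp5o and Atp5a1. By complex, 28 of 36 members of complex I, all 4 of complex II, all 9 of complex III, 9 of 12 of complex IV and 13 of 17 of complex V were higher at any fold. The median log2 difference was 0.62 over the members and 0.40 over all genes tested. After rescaling, 43 members (55.1%) were higher, against 38.3% of all genes tested, and the medians were 0.40 and 0.19. Ndufa12 and Atp5g1, 2 members (2.56%, against 13% of all genes tested), stayed above 2-fold. The 2-fold count depended on single P11 libraries: it was 14 without P11 replicate 2 and 5 without P11 replicate 3. With the 9 other libraries taken as 1 group, whose spread then includes the differences among P12, P10 and P9, no member and no other gene passed limma's adjusted threshold, and 30 of 78 members (38.5%, against 25% of all genes tested) had an unadjusted p under 0.05.

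Orders of means and libraries were taken on the deposited scale alone, and the rescaling was not applied to them. The means lay in the order P11, P12, P10, P9 in 54 of the 78 members (69.2%), against 36.1% of all genes tested. P9 had the lowest mean in 71 members (91.0%, against 66.9%) and P11 the highest in 67 (85.9%, against 47.0%). All 3 P9 libraries lay below the 9 others in 47 members (60.3%), against 45.9% of all genes tested. All 3 P11 libraries lay above the 9 others in 12 members (15.4%), a share near the 12.8% of all genes tested. Exceptions to P11 as the highest were P12 in 8 members (Atp5g2, Atp5k, Atp5l, Cox7a2, Ndufa1, Ndufb4, Sdhb and Uqcrb), P10 in Cox7a2l and Cox7c, and P9 in Ndufv3.

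P11 and P12 differ in the sort by cKit. None of the 78 members passed the limma test between them, where 0.0223% of all genes tested, 3 genes, were higher. An unadjusted p under 0.05 was found for 13 of 78 members and for 1860 of 13450 genes tested. The members' median was 0.21 against 0.10 for all genes tested. P11 was nominally higher in 70 of 78 members and in 8480 of 13450 genes tested. After rescaling the medians were 0.16 and 0.05, and 14 members lay under 0. Cox5a, a structural subunit of complex IV, had the smallest adjusted p (0.21). It measured 47.0, 44.2 and 50.4 CPM in P11 and 25.2, 34.7 and 35.9 CPM in P12, a log2 difference of 0.57 with a 95% interval of 0.18 to 0.96, and the libraries did not overlap. Uqcr11, a small subunit of complex III, had the largest difference, 0.71 with an interval of 0.05 to 1.37. The upper ends of the intervals ran from 0.28 to 1.5 over the members, so for some of them the interval reaches past 2-fold.

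By the sort P11 and P10 share cKit and differ in Mac1. Kit RNA still differed, with means of 63.2 CPM in P11 and 12.7 CPM in P10 (limma adjusted p = 0.00022). Here 44 of 78 members were higher in P11 and none lower, where 34.4% of all genes tested were higher and 2192 of 13450 lower. Atp5g1 and Ndufa12, 2 members, passed 2-fold, where 12.8% of all genes tested did. The median log2 difference was 0.51 over the members and 0.25 over all genes tested (0.37 and 0.12 after rescaling). After rescaling 30 members (38.5%) were higher, against 26.7% of all genes tested. On that scale 1 member, Cox7a2l, was lower, where 2697 of all genes tested were. The largest complex median was that of complex V, 0.64, and the smallest that of complex IV, 0.44. The 2-fold count was 1 without P11 replicate 3 and 9 without P10 replicate 3, the library with the highest neutrophil markers of P10. The part of these markers in the count was not tested.

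P11 and P9 lay farthest apart. Of 78 members 68 were higher in P11, where 62.5% of all genes tested were, and 51 were higher above 2-fold, where 46.8% of all genes tested were. One member, Ndufv3, was lower, where 17.9% of all genes tested were. The median log2 difference was 1.18 over the members, a 2.27-fold difference, and 0.90 over all genes tested. After rescaling the medians were 0.68 and 0.45, with 51 members higher (65.4%, against 49.3% of all genes tested). Ndufv3 and Ndufb7, 2 members, were then lower, where 3596 of all genes tested were. Above 2-fold were 23 members (29.5%, against 34% of all genes tested), so on that scale this share was under the background. Neutrophil markers and the share of the 100 most abundant genes were also highest in P9, and their part in these differences was not tested beyond the rescaling.

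The 3 comparisons without P11 share libraries with one another and with those above, and their values are given side by side. P12 over P9 had 63 members higher (80.8%, against 60.9% of all genes tested), 38 of them above 2-fold (48.7%, against 43.2%), and a median of 0.96 (all genes tested, 0.80). After rescaling 43 were higher (55.1%, against 47.7%), 15 of them above 2-fold (19.2%, against 31.5%), and the median was 0.52 (all genes tested, 0.39). On that scale 3 were lower (Ndufv3, Ndufb7 and Ndufa13), where 3516 of all genes tested were. P10 over P9 had 52 members higher (66.7%, against 55.8% of all genes tested), 19 of them above 2-fold (24.4%, against 34.1%), and a median of 0.67 (all genes tested, 0.61), so only the share above 2-fold was under the background. After rescaling 34 were higher (43.6%, against 41.8%), 8 of them above 2-fold (10.3%, against 25%), and the median was 0.32 (all genes tested, 0.28). On that scale 4 were lower (these 3 and Atp5f1), where 3070 of all genes tested were. On the deposited scale Ndufv3 was the 1 member lower than P9 in each, where 18% of all genes tested were lower in P12 and 14.8% in P10. P12 over P10 had 14 members higher, where 21.8% were, 1 above 2-fold (Ndufb4), where 6.25% were, and 1 lower (Cox7a2l), where 13.0% were. That 2-fold count was 0 without P12 replicate 1, P10 replicate 1 or P10 replicate 2, was 2 without P11 replicate 1, P12 replicate 3 or P9 replicate 1, and was 4 without P10 replicate 3. The count at any fold was 28 without P10 replicate 3 and 22 without P12 replicate 3 or P9 replicate 1. Although the shares called were under the background, the P12 over P10 median was 0.33 over the members (all genes tested, 0.14). P12 was nominally higher in 65 of 78 members and in 8130 of 13450 genes tested. After rescaling 13 members were higher (16.7%, against 17%), and the median was 0.25 (all genes tested, 0.06).

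**Figure D3:**
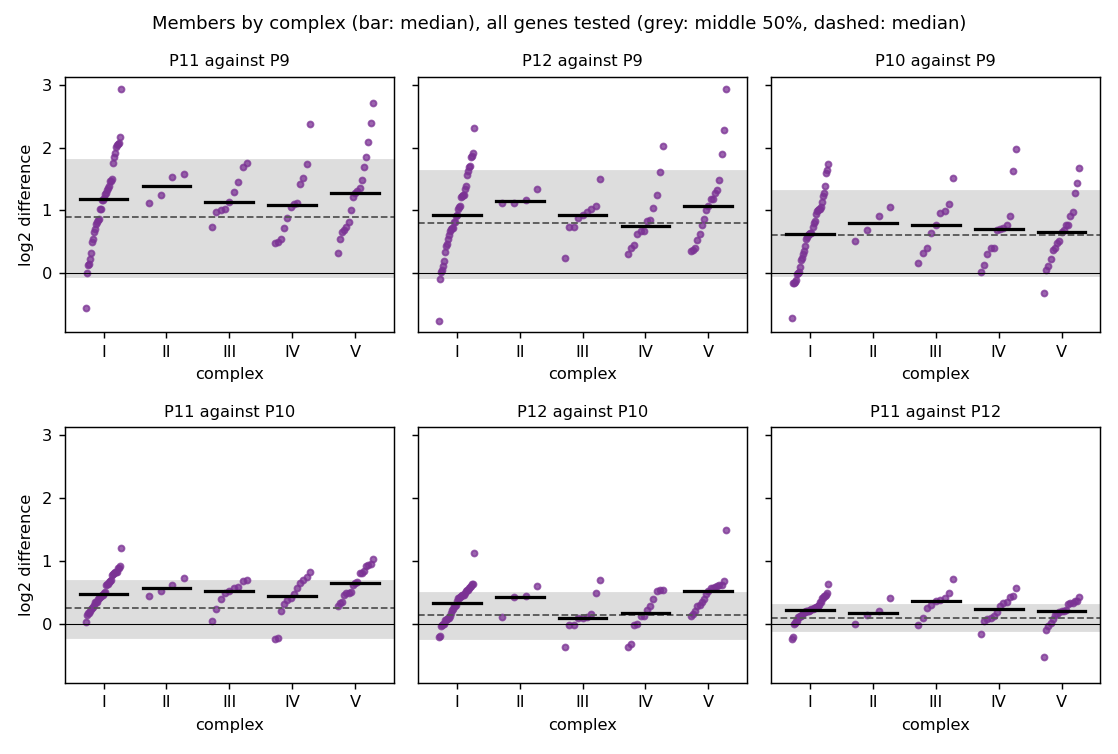
Log2 differences of the 78 tested members by complex, in each of the 6 pairwise comparisons. Points are members, short lines the median of a complex, the dashed line the median and the grey band the middle 50% of all genes tested. The P11 over P9 medians run from 1.08 in complex IV to 1.39 in complex II.

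The core subunits of complex I hold the flavin, the iron-sulfur clusters and the way to ubiquinone. The 7 core subunits encoded in the nucleus had a median P11 over P9 log2 difference of 1.36, from 1.03 to 2.03, and all 7 were higher above 2-fold, where 46.8% of all genes tested were. The 29 other members had a median of 1.02, from -0.55 to 2.94, with 15 higher above 2-fold. After rescaling 3 of the 7 stayed above 2-fold with a median of 0.86, and 8 of the 29 with a median of 0.54, against 34% of all genes tested. Ndufv1 (chr19:4007497-4012806), which binds the flavin that accepts electrons from NADH, measured 52.0, 40.0 and 47.3 CPM in P11, 36.5, 42.5 and 36.3 CPM in P12, 30.2, 30.6 and 25.3 CPM in P10 and 15.0, 16.8 and 15.9 CPM in P9. It stood 1.51 ± 0.14 (SE) higher in P11 than in P9 (limma adjusted p = 6.25e-07), and the P9 libraries overlapped with none of the others. Ndufs1, the largest iron-sulfur subunit, differed by 1.03 ± 0.18 and Ndufs7, next to the ubiquinone site, by 1.33 ± 0.23 between the same groups.

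Ndufa12 (chr10:94198720-94221443), an accessory subunit of the NADH-oxidizing module, had the largest difference of any member. It measured 20.2, 19.8 and 26.3 CPM in P11, 13.4, 16.6 and 12.3 CPM in P12, 8.49, 8.44 and 11 CPM in P10 and 0.758, 3.23 and 4.85 CPM in P9. The P11 over P9 log2 difference was 2.94 ± 0.40 (limma adjusted p = 1.85e-05), or 2.42 with the reads of its near-identical copy Gm15920 added, and that over the mean of the others 1.59 ± 0.33 (adjusted p = 0.00115). No P11 library overlapped with any other. Ndufa9, close to the ubiquinone site, differed by 2.08 ± 0.20 between P11 and P9, with 38.8, 33.6 and 39.5 CPM in P11 and 6.15, 10.7 and 9.09 CPM in P9. Ndufa5, an accessory subunit, was called above 2-fold over the mean of the others (1.15 ± 0.39, adjusted p = 0.0212), but it rests on P11 replicate 3, at 10.8 CPM against 4.92 and 4.90 CPM in the other P11 libraries, and without it the adjusted p was 0.141.

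Ndufv3 (chr17:31520115-31531326), an accessory subunit beside the flavin, ran opposite to the rest. It measured 20.5, 23.9 and 31.4 CPM in P11, 24.3, 22.5 and 18.2 CPM in P12, 17.8, 20.5 and 29.8 CPM in P10 and 37.3, 37.8 and 34.7 CPM in P9, and the P9 libraries lay above the 9 others. The log2 difference from P9 was -0.55 ± 0.21 in P11 (limma adjusted p = 0.0274), -0.75 in P12 (0.00477) and -0.71 in P10 (0.00819), and it was -1.05 in P11 after rescaling. Without P11 replicate 1 the P11 value was -0.41 with an adjusted p of 0.118. Ndufb7, a subunit with disulfide bonds on the outer face of the membrane arm, measured 28.3, 31.4 and 32.8 CPM in P11, 33.6, 27.5 and 25.4 CPM in P12, 24.5, 25.5 and 33.0 CPM in P10 and 29.0, 31.2 and 31.5 CPM in P9. Its difference between P11 and P9 was 0.01 ± 0.15 (adjusted p = 0.958) on the deposited scale and -0.49 (0.0135) after rescaling, so its direction depends on the scale. Ndufa1, Ndufa2, Ndufa3 and Ndufa13 did not pass the test between P11 and P9 either, with 0.13, 0.15, 0.24 and 0.33, and were under 0 after rescaling.

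Complex II, which also works in the citrate cycle, is made of the 4 Sdh subunits alone, and all 4 were higher above 2-fold in P11 than in P9, where 46.8% of all genes tested were. After rescaling all 4 were higher and 2 of them, Sdha and Sdhd, stayed above 2-fold, against 49.3% and 34% of all genes tested. Sdha (chr13:74322254-74350280), the flavin subunit that oxidizes succinate, measured 224, 196 and 203 CPM in P11, 187, 200 and 158 CPM in P12, 129, 145 and 133 CPM in P10 and 64.1, 74.5 and 76.2 CPM in P9. Its log2 difference of P11 over P9 was 1.53 ± 0.12 (limma adjusted p = 1.25e-07), and P11 and P12 overlapped. Sdhb, the iron-sulfur subunit, differed by 1.12 ± 0.13, with 53.0, 43.9 and 44.1 CPM in P11 and 20.4, 22.8 and 20.5 CPM in P9. The membrane anchors Sdhc and Sdhd differed by 1.25 ± 0.14 and 1.57 ± 0.17. The mean of P10 lay under that of P12 and above that of P9 in each of the 4, and for Sdhd the means were 78.4 CPM in P11, 60.4 CPM in P12, 54.8 CPM in P10 and 26.1 CPM in P9.

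In complex III all 9 members were higher in P11 than in P9 and 7 of them above 2-fold, where 62.5% and 46.8% of all genes tested were. After rescaling 7 were higher and 2 above 2-fold, Uqcrfs1 and Uqcr11, against 49.3% and 34% of all genes tested. Uqcrfs1 (chr13:30540308-30545362), the Rieske iron-sulfur protein, was far lower in P9, with 57.7, 49.0 and 48.4 CPM in P11, 44.6, 43.0 and 42 CPM in P12, 46.3, 43.2 and 42.3 CPM in P10 and 14.6, 15.9 and 14.5 CPM in P9. The log2 difference was 1.75 ± 0.12 between P11 and P9 (limma adjusted p = 3.68e-08) and 0.23 ± 0.12 between P11 and P10 (0.137). Cyc1, the cytochrome that hands electrons to cytochrome c, differed by 1.45 ± 0.16 and Uqcrc1, a core protein, by 1.29 ± 0.14 between P11 and P9. Uqcr11 was the member of this complex called above 2-fold over the mean of the others (1.03 ± 0.25, adjusted p = 0.00326), with 15.5, 14.0 and 24.8 CPM in P11, 7.51, 10.6 and 14.7 CPM in P12, 7.51, 10.7 and 14.9 CPM in P10 and 5.86, 5.39 and 4.21 CPM in P9, so P11 overlapped with P12 and P10. The complex median of P12 over P10 was 0.10, against 0.53 in complex V.

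In complex IV 10 of 12 tested members were higher in P11 than in P9, where 62.5% of all genes tested were. After rescaling 7 of 12 were (58.3%, against 49.3% of all genes tested). Cox4i1 (chr8:120668222-120674207), the regulatory subunit in most tissues, measured 131, 139 and 141 CPM in P11, 138, 128 and 123 CPM in P12, 94.9, 133 and 133 CPM in P10 and 55.1, 69.3 and 64.9 CPM in P9, with a P11 over P9 difference of 1.12 ± 0.14. P11, P12 and P10 overlapped, and only P9 stood apart. Cox7a2 and Cox7c did not pass between P11 and P9, with differences of 0.51 (adjusted p = 0.162) and 0.55 (0.169). Cox6a1 passed with 0.49 (0.0779) and was at -0.02 after rescaling. Its call ended without P11 replicate 2 (adjusted p = 0.109), P11 replicate 3 (0.266), P9 replicate 2 (0.132) or P9 replicate 3 (0.191).

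Cox7a2l (chr17:83501918-83517330) had its highest mean in P10. It measured 100, 86.5 and 104 CPM in P11, 83.5, 83.2 and 100 CPM in P12, 109, 123 and 112 CPM in P10 and 25.4, 27.7 and 33.5 CPM in P9, with all P10 libraries above the 9 others. P10 over P9 was 1.98 ± 0.13 (limma adjusted p = 6.63e-08) and P11 over P9 was 1.73 ± 0.13. P12 over P10 was -0.37 (0.0568), a call that ended without P12 replicate 1 (adjusted p = 0.148), P12 replicate 2 (0.17) or P10 replicate 2 (0.181), and P11 over P10 was -0.25 (0.152), or -0.39 (0.0154) after rescaling, a lower call.

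Cox6b2, named as a testis isoform of Cox6b1, was present in every library. It measured 25.8, 23.7 and 32.0 CPM in P11, 27.2, 19.2 and 17.7 CPM in P12, 12.1, 17.6 and 18.5 CPM in P10 and 4.32, 5.28 and 4.83 CPM in P9. The P11 over P9 difference was 2.37 ± 0.22 (limma adjusted p = 4.57e-07), against 1.10 ± 0.28 (0.00286) for Cox6b1, whose libraries held 42.7, 40.2 and 58.4 CPM in P11 and 13.2, 23.5 and 31.5 CPM in P9. Per kilobase of the longest transcript, Cox6b2 averaged 46.5 CPM per kb in P11, 36.5 CPM per kb in P12, 27.5 CPM per kb in P10 and 8.22 CPM per kb in P9, and Cox6b1 averaged 76.2 CPM per kb in P11, 56.8 CPM per kb in P12, 57.3 CPM per kb in P10 and 36.8 CPM per kb in P9. Cox6b2 was thus the lower of the pair in each group by level. The difference between the log2 differences of the pair was not tested.

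In complex V the alpha and beta subunits of the catalytic F1 part were the most abundant, and the other F1 subunits were not. Atp5b (chr10:128083273-128090391), the catalytic beta subunit, measured 706, 623 and 663 CPM in P11, 482, 622 and 466 CPM in P12, 351, 375 and 331 CPM in P10 and 193, 199 and 227 CPM in P9, and had the highest level per kilobase of all members in each group. Every P11 library lay above the 9 others, the nearest being P12 replicate 2. Atp5a1 (chr18:77773729-77782869), the alpha subunit, measured 651, 574 and 567 CPM in P11, 542, 587 and 442 CPM in P12, 331, 381 and 311 CPM in P10 and 144, 131 and 146 CPM in P9. The P11 over P9 difference was 2.09 ± 0.13 for Atp5a1 (limma adjusted p = 1.99e-08), 1.69 ± 0.13 for Atp5b, 1.32 ± 0.10 for Atp5c1, the central stalk, and 1.85 ± 0.15 for Atp5o, which fastens the F1 head to the outer stalk. Over the mean of the others Atp5a1 reached 1.03 ± 0.11 and Atp5o 1.05 ± 0.12, both above 2-fold, and Atp5b 0.98 ± 0.11, just under it. Atp5f1, a stalk subunit at 161 CPM in P11, 159 CPM in P12, 114 CPM in P10 and 110 CPM in P9, differed by only 0.55 ± 0.13 between P11 and P9. After rescaling Atp5f1 did not pass between these groups. Atp5k did not pass on the deposited scale (0.33, adjusted p = 0.578) and was at -0.16 after rescaling.

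Atp5g1, Atp5g2 and Atp5g3 encode the same mature c subunit, whose ring turns in the membrane. Atp5g1 (chr11:96068852-96075670) measured 45.2, 45.7 and 52.2 CPM in P11, 43.8, 31.4 and 32.3 CPM in P12, 22, 21.7 and 25.5 CPM in P10 and 7.71, 6.22 and 6.80 CPM in P9, and its P11 over P9 difference of 2.70 ± 0.16 (limma adjusted p = 1.25e-08) had the smallest p of the members. All 6 libraries of P11 and P12 lay above all 6 of P10 and P9. Atp5g3 differed by 1.48 ± 0.18, with 36, 31.7 and 40.0 CPM in P11 and 13.7, 10.7 and 13.2 CPM in P9. Atp5g2 was uneven between replicates, at 3.13, 15.2 and 7.64 CPM in P11, 27.7, 10.4 and 4.06 CPM in P12, 2.67, 4.05 and 3.91 CPM in P10 and 0.198, 1.52 and 1.75 CPM in P9.

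Reads of Atp5g2 can be shared with copies of its sequence. Of the 81 members 21 have a copy in the GENCODE M21 annotation at 95% identity or more over 80% of the copy, and for 16 of them a copy is in the table. Of the copies of Atp5g2, Gm10175 held more CPM than the gene itself (means of 51.5 and 6.85 CPM) and Gm10231 less (0.544 CPM). The sum of the 3 was 110.9, 82.4 and 86.6 CPM in P11, 58.3, 76.6 and 75.1 CPM in P12, 53.2, 63.3 and 50.7 CPM in P10 and 16.6, 15.7 and 17.6 CPM in P9. With the copies the replicates were closer together, the P11 over P9 difference was 2.44 (limma adjusted p = 1.81e-08) and P11 over P12 was 0.41 (0.26), against -0.53 (0.765) for Atp5g2 alone. Ndufb4, an accessory subunit of complex I, had a P12 over P10 difference of 1.12 (0.0526) alone and 0.79 (0.0897) with its copies, under 2-fold. The copies of Atp5l, a membrane subunit of complex V, held 5.68 CPM in P12 replicate 1 and 23.8 and 26.7 CPM in the other P12 libraries. A further limit is that 26 members overlap a gene on the opposite strand, and the labels and the paper name kits that differ in whether they keep strand.

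**Figure D4:**
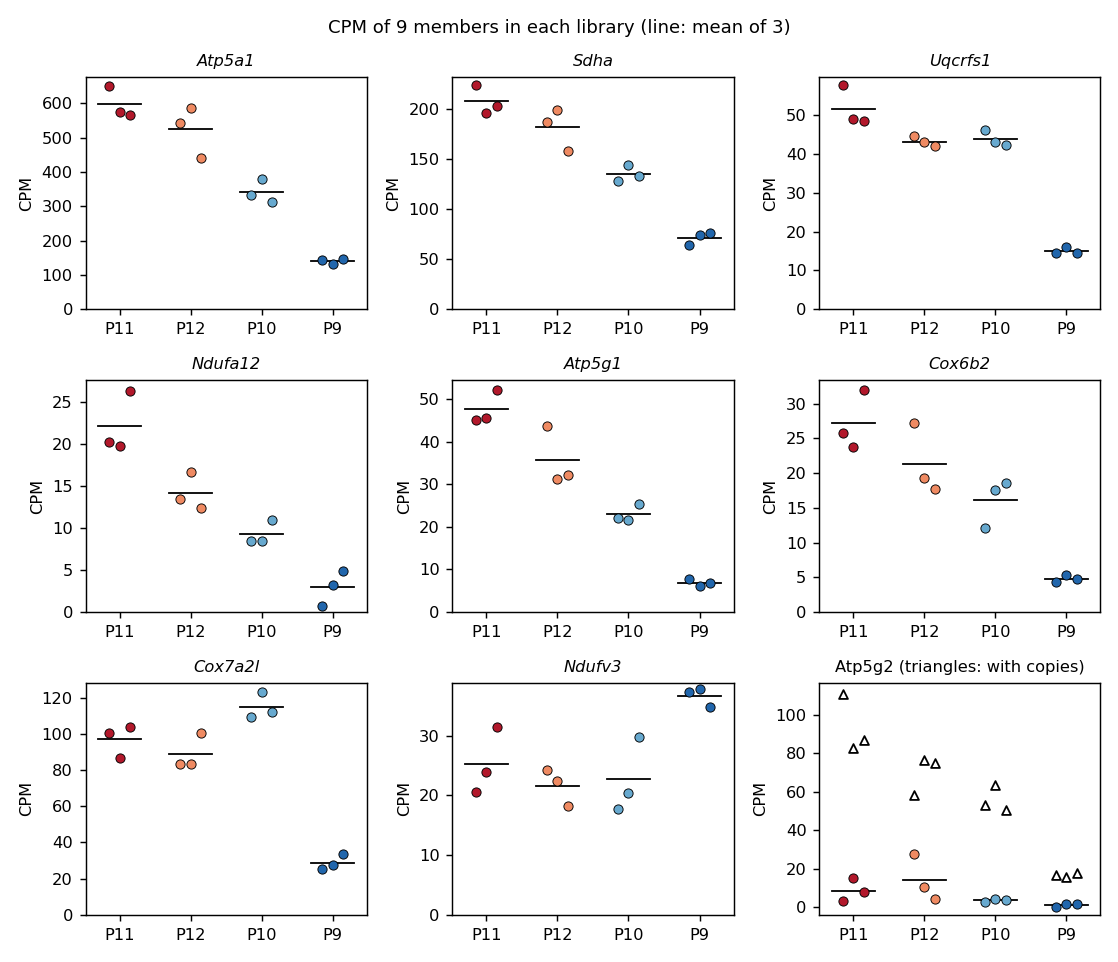
CPM of 9 members in each library, with P11, P12, P10 and P9 on the horizontal axis. Circles are libraries, lines are means of 3, and triangles give Atp5g2 with its copies added. Atp5a1, Sdha and Ndufa12 are highest in P11 and lowest in P9, Uqcrfs1 and Cox7a2l have their largest step at P9, and Ndufv3 is highest in P9.

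The members are short transcripts, with a median of 891.5 bases in the longest annotated transcript, against 3097 bases over the 11314 tested genes with a length. The 44 members under 1000 bases had a median P11 over P9 difference of 0.94 and the 34 longer ones 1.42. Across the 78 members the Spearman correlation of length and difference was 0.37, and across 11314 genes with a length it was -0.08. These are descriptions across genes that share libraries. The short members also varied more between replicates: their median deviation from the group mean was -0.17, -0.07 and 0.25 in the P11 libraries, 0.24, -0.05 and -0.11 in P12, -0.33, -0.10 and 0.37 in P10 and -0.14, -0.01 and 0.19 in P9. The longer members stayed between -0.14 and 0.09. Replicate 3 was the highest for short members in P11, P10 and P9, and the part of length in the member differences was not tested.

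**Figure D5:**
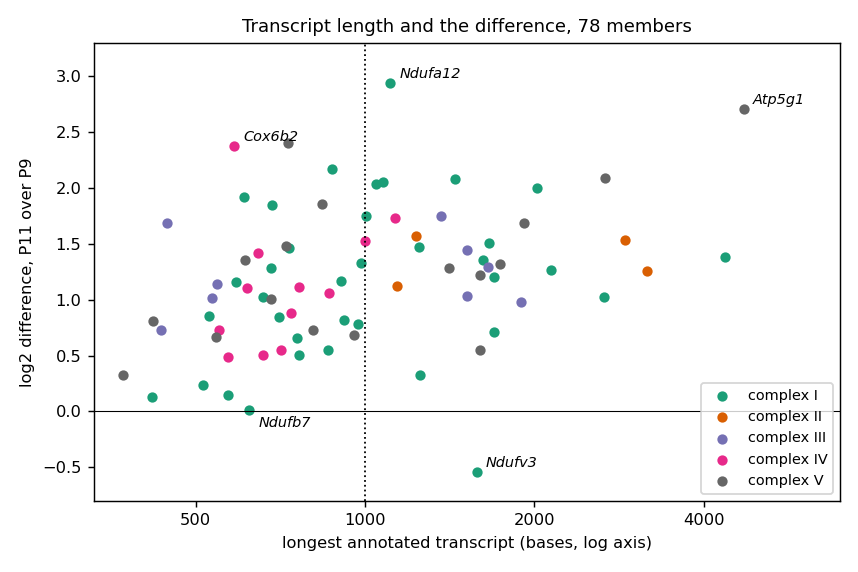
P11 over P9 log2 difference of each tested member against the length of its longest annotated transcript, on a log axis in bases, colored by complex. The dotted line marks 1000 bases. Members under it have a median of 0.94 and longer ones 1.42, and Ndufv3 lies below 0.

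Genes that build and feed the chain were taken from lists drawn up by function. Of 50 tested assembly factors 43 were higher in P11 than in the others' mean, 15 of them above 2-fold, and none was lower, with a median of 0.74. After rescaling 32 were higher (64%, against 38.3% of all genes tested), 8 of them above 2-fold (16%, against 13%). Ndufaf4, needed to build complex I, measured 16.1, 16.9 and 20.9 CPM in P11, 13.8, 15.6 and 8.33 CPM in P12, 7.67, 7.84 and 9.07 CPM in P10 and 0, 0.660 and 0.730 CPM in P9, a P11 over P9 difference of 4.36 ± 0.34. Tmem186, Atpaf2 and Uqcc1, which serve complexes I, V and III, were higher over the mean of the others by 1.18, 1.11 and 1.02. In this contrast 50.1% of all genes tested were higher, 19.9% above 2-fold, and 1981 of 13450 lower on the deposited scale.

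Of 14 tested ubiquinone and cytochrome c genes 11 were higher in P11 than in the others' mean, 5 above 2-fold, where 50.1% and 19.9% of all genes tested were, with a median of 0.89. After rescaling 10 were higher (71.4%, against 38.3% of all genes tested), 3 of them above 2-fold (21.4%, against 13%). On that scale 1 was lower, where 2973 of all genes tested were. Cycs, which encodes the carrier cytochrome c, measured 63.8, 71.7 and 77.9 CPM in P11, 57.8, 82.4 and 47.1 CPM in P12, 37.8, 30.9 and 45.4 CPM in P10 and 7.00, 7.82 and 12.5 CPM in P9. Its P11 over P9 difference was 2.94 ± 0.24 (limma adjusted p = 1.56e-07). Coq10b, a lipid-binding protein of the ubiquinone pool, was lower in P11 than in P9 (-0.70, adjusted p = 0.0449).

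Of 19 citrate cycle and pyruvate dehydrogenase genes 18 were higher in P11 than in the others' mean, 6 above 2-fold, where 50.1% and 19.9% of all genes tested were, with a median of 0.74. After rescaling 16 were higher (84.2%, against 38.3% of all genes tested), 5 of them above 2-fold (26.3%, against 13%). Idh2, the mitochondrial NADP-linked isocitrate dehydrogenase, measured 118, 97.6 and 106 CPM in P11, 82.9, 83.9 and 65.9 CPM in P12, 46.4, 43.1 and 38.2 CPM in P10 and 6.67, 5.28 and 5.67 CPM in P9, and the 4 groups did not overlap. Its P11 over P9 difference was 4.08 ± 0.14 (limma adjusted p = 4.25e-10), larger than that of any respiratory chain member. Suclg2 and Fh1 differed by 4.06 and 2.94 between P11 and P9.

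Of 19 tested regulators and genes of mitochondrial DNA expression 14 were higher in P11 than in the others' mean, 7 above 2-fold, where 50.1% and 19.9% of all genes tested were. After rescaling 11 were higher (57.9%, against 38.3% of all genes tested), 6 of them above 2-fold (31.6%, against 13%). On that scale 1 was lower, where 2973 of all genes tested were. Pprc1, a coactivator of the PGC-1 family, measured 75.9, 71.0 and 65.8 CPM in P11, 76.1, 57.7 and 48.4 CPM in P12, 30, 31.4 and 37.7 CPM in P10 and 5.05, 4.07 and 7.58 CPM in P9, and P11 and P12 overlapped. Its P11 over P9 difference was 3.60 ± 0.21 (limma adjusted p = 1.13e-08). Lrpprc, which stabilizes mitochondrial mRNAs, Twnk, the helicase of mitochondrial DNA, and Polrmt, its RNA polymerase, differed by 3.52, 3.05 and 2.92. Esrra, an estrogen-related receptor, was lower in P11 than in P9 (-0.43, adjusted p = 0.0628). Of 3 tested subunits and inhibitors that the symbol rule leaves out, Ndufab1 and Atpif1 were higher over the mean of the others (1.24 and 1.17), and Usmg5 had 0.77 (0.119).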

How the data were processed

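RNA-seq was made from 12 libraries, 3 each of P11, P12, P10 and P9. By the paper's methods and the submitters' notes the authors aligned single reads of 61 bases with STAR 2.5.3a to mm10, quantified Ensembl transcripts by the E/M method of Partek, then normalized. The deposited values are CPM with 0.0001 added, for 20202 genes. The spacing of the lowest CPM gave an estimate of the total alignments of each library. Of the low values 76.8 to 83.2% lay within 0.1 of a whole alignment, so reads were not recovered and no count test was run. Few alignments stand behind values near 1 CPM.

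The offset was subtracted, and genes that reached 1 CPM in 3 or more libraries were fitted as log2(CPM + 0.5) with limma 3.58.1 (R 4.3.3; the data.table package, version 1.17.8), 1 mean per sub-population and an intensity trend. The Benjamini-Hochberg adjustment ran over 13450 genes. Calls needed an adjusted p under 0.1, and above 2-fold where stated. On simulated data the fit was tested and recovered the changed genes. Coordinates are those of the table in mm10, with ends checked against GENCODE M21, whose longest transcript gave the lengths. Copies were found with BLAST 2.17.0+, with at least 95% identity along 80% of their length. Plots were made with matplotlib 3.10.9 and tables with numpy 2.4.6 and pandas 2.3.3, under Python 3.11.15.

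The members and lists were chosen with earlier results of these data known. Named genes were the catalytic and electron-carrying subunits, isoform sets, the 2 highest and 2 lowest members of each complex in P11 over the mean of the others, members that moved against the median, and up to 4 genes per list by adjusted p. Others, among them Ndufb7, Atp5f1, Coq10b and Esrra, were named after their values were seen. Alternatives were pseudocounts of 0.1 and 2, filters of 0 and 10 CPM, 2 rescalings (median ratio, or sums that leave out the 100 most abundant genes), a block for the replicate number, each library or replicate 3 left out, a fold of mean CPM, protein-coding genes alone, the 9 other libraries pooled, an adjusted p of 0.05 and complexes assigned by function. Adding near-identical copies was chosen after seeing the data. Protein sequences were not used here. Some genes of the lists are not reported here by name.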

Additional observations from a re-analysis of the deposited data

How the results depend on the processing

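The count of members above 2-fold in either direction and the median difference were recomputed under each alternative. With each library left out in turn the counts ran from 5 to 14 for P11 over the mean of the others, stayed at 0 for P11 over P12, and ran from 1 to 9 for P11 over P10, 45 to 51 for P11 over P9, 0 to 4 for P12 over P10, 33 to 41 for P12 over P9 and 14 to 23 for P10 over P9. The medians in the same comparisons ran from 0.59 to 0.67, 0.15 to 0.29, 0.43 to 0.65, 1.11 to 1.26, 0.21 to 0.43, 0.90 to 1.02 and 0.52 to 0.75. Rescaling by the median ratio lowered the counts to 2 for P11 over the mean of the others, 1 for P11 over P10, 24 for P11 over P9, 16 for P12 over P9 and 9 for P10 over P9, and the medians to 0.40 for P11 over the mean of the others, 0.68 for P11 over P9, 0.52 for P12 over P9 and 0.32 for P10 over P9. Rescaling without the 100 most abundant genes gave counts of 4, 1, 33, 24 and 11 in these 5 comparisons and medians of 0.89 for P11 over P9, 0.74 for P12 over P9 and 0.47 for P10 over P9. By construction both put less weight on the genes that fill P9. A pseudocount of 2 gave 5 for P11 over the mean of the others and 1 for P11 over P10, an arithmetic fold gave 2 for P11 over the mean of the others, and taking the 9 other libraries as 1 group gave 0, with 0 instead of 63 members higher at any fold. For P12 over P10 the count was 12, with a median of 0.53, and for P11 over P10 it was 5 without replicate 3 of every sub-population. The count for P12 over P10 was 2 over protein-coding genes alone, 0 at an adjusted p of 0.05 and 0 with near-identical copies added, an alternative chosen after seeing the data. Cox6a1 in P11 over P9 turned to -0.0197 under the median ratio, and it was the 1 called value of a named gene that changed sign. The paper describes sub-populations sorted from the same mice, but no label ties a replicate number to a mouse. In the data 10 of 12 libraries correlated best with their own number, a hint of pairing, while 12 and not all of the 18 same-numbered pairs had a correlation over 0.1 (-0.0165 to 0.527), so the libraries were not treated as paired. With the replicate number as a block the counts above 2-fold were 9, 0, 2, 51, 1, 38 and 19, the same as without it. At any fold it gave 66, 0, 48, 69, 21, 64 and 53 members higher, against 63, 0, 44, 68, 14, 63 and 52 without it, and 2 instead of 1 lower for P12 over P10. By more than the spread between replicates, the median ratio moved 19 of 35 complex medians, the other rescaling 12, leaving out P10 replicate 1 or P10 replicate 3 moved 1 each, and the remaining alternatives for which they were computed, assigning complexes by function among them, moved none. Of the other values of named genes, 8781 kept their side of the threshold, 83 of which, called under neither setting, changed sign (11 under the median ratio), 195 no longer passed it and 81 newly passed it. Where no cause is named, the cause was not tested. The number of libraries limits the precision: 3 per group, each of 100 cells, and short members are the least even between replicates.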

Other observations

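The regulators whose motif letters were searched in the promoters were themselves measured, and were named here after their values were seen. Nrf1 measured 49.2, 40.3 and 43.6 CPM in P11 and 26.4, 35.6 and 36.5 CPM in P9, a log2 difference of 0.44 (limma adjusted p = 0.0182), under the median of all genes tested in that comparison (0.90). Yy1 differed by 0.42 (adjusted p = 0.0176) and Gabpa by 1.03 (5.42e-05) between the same sub-populations. These values are on the deposited scale. Rescaling by the median ratio lowered the median of all genes tested to 0.45, so the calls of Nrf1 and Yy1 may not hold on that scale. Ppargc1b, a second coactivator of the PGC-1 family, measured 8.95, 10.4 and 7.01 CPM in P11 and 0.220, 0.055 and 0 CPM in P9, with a log2 difference of 3.97 (adjusted p = 7.74e-08). Tfam, which packs and transcribes mitochondrial DNA, measured 22.5, 21.4 and 23.3 CPM in P11 and 3.15, 6.27 and 5.11 CPM in P9, with a log2 difference of 2.15 (adjusted p = 1.86e-06). Neither gene's P11 libraries overlapped with its P9 libraries.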
